A study of Mus musculus with 7 samples.

Results

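Adhesion molecules of the cell surface were compared by the RNA of 10 genes between mouse embryonic fibroblasts (MEFs) and mouse embryonic stem cells (mESCs), which are pluripotent cells derived from the early embryo. The genes were Cdh1, Cdh2, Cdh3, Cdh5, Cdh11, Cdh13, Epcam, Thy1, Cd44 and Pecam1, and they were taken by symbol from a table of 55484 genes, in which all 10 were found. RNA was measured in 4 MEF and 3 mESC libraries, both cell types being described as of C57/Bl6 background. Neither cell type carried a treatment in the labels. The libraries are called MEF-O1 to MEF-O4 and mESC-Y1 to mESC-Y3 after the letter and the last number in the names of the count columns, whose meaning is not explained in the sources used here. Every MEF column has the letter O and every mESC column the letter Y, so whatever it stands for cannot be told apart from cell type. Reads came from the 3′ ends of polyadenylated RNA and were collapsed by molecular identifier. The study's methods describe sorting of THY1+ MEFs and of THY1-/SSEA1+/EPCAM+ mESCs for its chromatin libraries, and do not state whether the cells used for RNA were sorted. If they were, Thy1 and Epcam helped to choose the cells and their difference is no finding. The labels' extraction text describes blood stem cells from mice, not these cells. The study calls its transcriptional samples biological replicates, and counts fewer of them for MEFs than the libraries used here. It does not say which embryos, lines or passages they came from, so p-values measure the spread between these libraries.

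Classical cadherins are calcium-dependent receptors that bind the same cadherin on a neighbouring cell, and their cytoplasmic tails bind catenins, which link them to actin. E-cadherin (Cdh1) holds epithelial cells and pluripotent cells together in compact colonies, whereas N-cadherin (Cdh2) and cadherin 11 (Cdh11) are typical of mesenchymal cells. The exchange of E-cadherin for N-cadherin is a textbook feature of the epithelial to mesenchymal transition, and the reverse accompanies reprogramming of fibroblasts to pluripotency. EPCAM, PECAM1, THY1 and CD44 belong to other families and are widely used as surface markers.

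The genes for E-cadherin and P-cadherin (Cdh3) are neighbours in the same orientation, and their coding sequences share no identical run longer than 16 bases. The stretch around that run is given for each gene 5′ to 3′, with the shared run in capitals, since the counts of these neighbouring genes went in opposite directions. It covers coding bases 549 to 604 of 2652 in Cdh1 and 378 to 433 of 2466 in Cdh3 (GENCODE M21 transcripts).
Cdh1: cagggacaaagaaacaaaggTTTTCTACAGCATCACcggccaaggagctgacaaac
Cdh3: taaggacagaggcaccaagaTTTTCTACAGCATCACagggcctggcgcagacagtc
The longest identical run between any 2 of the 6 member cadherins was 26 bases and the shortest of the 15 pairwise maxima was 12. No sequence of 50 bases in Cdh1, Cdh2, Cdh3, Cdh5, Epcam, Thy1 or Cd44 transcripts was found in another gene's transcripts. Cdh11 shared 2.07% of its 50-base sequences, mostly with 6820431F20Rik, Pecam1 shared 1.54% and Cdh13 shared 0.205%. No exon of a member overlapped an exon of another gene on either strand.

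Of the 10 members, 9 had enough counts to be tested, and 8 differed between the cell types. Cdh1, Epcam and Pecam1 were higher in mESCs, and Cdh2, Cdh3, Cdh11, Thy1 and Cd44 were lower (Benjamini-Hochberg adjusted p under 0.05 in the quasi-likelihood test of edgeR, over 16580 tested genes). Cdh13 did not pass the test, and Cdh5 had too few counts. Differences were common in these data, as 47.9% of all tested genes differed, 22.8% being higher and 25.0% lower in mESCs. Of the calls, 47.7% were in the higher direction, and 60.8% when counts were scaled by library size alone, which moved the median log2 fold change of all tested genes from 0.04 to 0.32. The same 8 members differed when tested against a fold change of 2, which 24.1% of all genes passed (10.3% higher and 13.7% lower). The log2 fold change was at least 4 in size for 6 of the 9 tested members and for 7.48% of all tested genes. The members were known to mark these cell types when they were chosen, so these shares describe them and are not a test of the group. Levels are given in CPM, counts scaled to a common library size by the TMM method, and are not compared between genes. In bulk RNA, fewer cells that express a gene and less RNA per cell cannot be told apart.

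**Figure D1:**
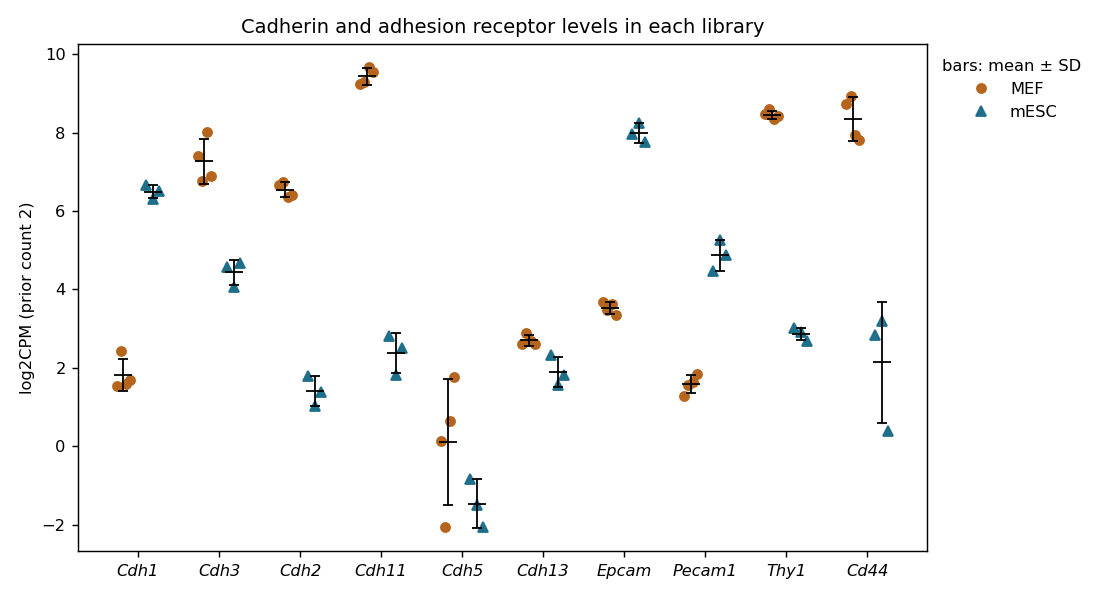
Level of each member in each library, as log2CPM with a prior count of 2 on the y axis; circles are the 4 MEF and triangles the 3 mESC libraries, and bars give the mean ± SD. The libraries of the cell types do not overlap for 9 of the 10 genes, and overlap for Cdh5, which is near the floor of 3 counts. Of all tested genes, 52.1% were free of overlap in either direction.

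Cdh1, on chromosome 8 of GRCm38 (106603351 to 106670246, plus strand), codes for E-cadherin. It had 2.69, 5.18, 2.76 and 3.02 CPM in MEF-O1 to MEF-O4, from 19 to 34 counts per library, and 102, 79.4 and 90.4 CPM in mESC-Y1 to mESC-Y3. Every mESC library lay far above every MEF library, and MEF-O2 stood above the other MEF libraries. The means were 3.41 ± 1.19 CPM in MEFs (SD, n = 4) and 90.4 ± 11.1 CPM in mESCs (SD, n = 3), a 26.5-fold difference of means. The fitted log2 fold change was 4.74 (standard error 0.255, 95% interval 4.18 to 5.31, edgeR adjusted p = 2.01e-07). Without MEF-O2 it was 5.0.

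Cdh2 codes for N-cadherin and lies on chromosome 18. Its levels were 102, 106, 81.8 and 84.9 CPM in MEF-O1 to MEF-O4 against 3.25, 1.82 and 2.36 CPM in mESC-Y1 to mESC-Y3. All MEF libraries were high, with MEF-O1 and MEF-O2 above MEF-O3 and MEF-O4. With means of 93.7 ± 12.1 CPM (SD, n = 4) and 2.48 ± 0.724 CPM (SD, n = 3), N-cadherin was 37.8-fold lower in mESCs. The log2 fold change was -5.23 (standard error 0.252, 95% interval -5.79 to -4.67, edgeR adjusted p = 1.02e-07). E-cadherin and N-cadherin thus differed in opposite directions, each well beyond the spread between libraries.

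Cdh11 (chromosome 8, 102632095 to 102785642, minus strand) codes for cadherin 11, first known from osteoblasts and common in mesenchyme, and had the largest difference of the members. MEF-O1 to MEF-O4 had 599, 621, 814 and 752 CPM. The mESC libraries had 6.83, 3.29 and 5.43 CPM, which came from 63, 29 and 46 counts. The mean was 134-fold lower in mESCs, at 5.18 ± 1.78 CPM (SD, n = 3) against 696 ± 104 CPM (SD, n = 4), and only 1.24% of tested genes differed by more in either direction. Its log2 fold change was -7.06 (standard error 0.284, edgeR adjusted p = 3.41e-08).

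Cdh3 (chromosome 8, 106510891 to 106557297, plus strand) codes for P-cadherin, the classical cadherin of placenta and basal epithelia. Unlike its neighbour Cdh1, it was lower in mESCs, with 23.4, 16.6 and 25.4 CPM against 170, 108, 257 and 118 CPM in MEF-O1 to MEF-O4. MEF-O1 and MEF-O3 were higher than the other MEF libraries, and the highest MEF level was 2.38 times the lowest, the widest such ratio of the called members in MEFs. The means were 163 ± 67.9 CPM (SD, n = 4) and 21.8 ± 4.61 CPM (SD, n = 3), a 7.49-fold difference. The log2 fold change was -2.90 (standard error 0.324, 95% interval -3.62 to -2.19, edgeR adjusted p = 3.53e-05), and -2.61 without MEF-O3.

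Cdh13 (chromosome 8, 118283733 to 119324921, plus strand) codes for T-cadherin, which is held in the membrane by a lipid anchor and lacks the tail that binds catenins. It had 5.85, 7.16, 6.23 and 5.88 CPM in MEF-O1 to MEF-O4 and 4.77, 2.73 and 3.30 CPM in mESC-Y1 to mESC-Y3. No mESC library reached the MEF range, and 52.1% of all tested genes were free of overlap in either direction. The log2 fold change was -0.80 (standard error 0.354, 95% interval -1.58 to -0.02). The test did not call it (adjusted p = 0.0868, edgeR), nor did any of the 13 alternative fits, where the adjusted p ran from 0.0607 to 0.890.

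Cdh5 (chromosome 8, 104101625 to 104144511, plus strand) codes for VE-cadherin of endothelial junctions. It had 9, 0, 11 and 20 counts in MEF-O1 to MEF-O4 and 3, 1 and 0 counts in mESC-Y1 to mESC-Y3, so no mESC library exceeded 3 counts, taken as the floor of a library. Its MEF libraries ran from 0 to 3.18 CPM and overlapped the mESC libraries. Pooled, 40 counts in MEFs against 4 in mESCs gave a ratio of 8.38 (exact 95% interval 3.03 to 32.3, counting error between these libraries only), and 1 of the MEF libraries had no count. No test was run on it at the main filter. When genes with at least 1 count were kept, its log2 fold change was -3.07 (edgeR adjusted p = 0.0288). In that fit the edgeR adjusted p of Cdh1 was 3.9e-68, against 2.01e-07 at the main filter with the same libraries. The p-values at this filter are therefore not comparable with those at the main filter.

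**Figure D2:**
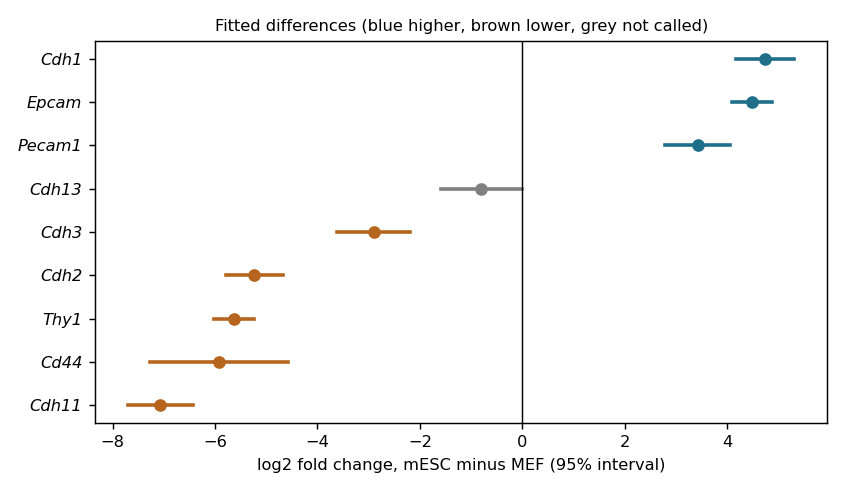
Fitted log2 fold change (x axis, mESC minus MEF) of the 9 tested members, with 95% intervals as lines. Cdh11 is the lowest at -7.06 and Cdh1 the highest at 4.74, and only the interval of Cdh13 comes close to 0.

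The counts on all 23 genes with a Cdh symbol show how the makeup of the family differed. In mESCs, Cdh1 held 57.7% (exact binomial 95% interval 55.3 to 60.1), 56.3% (53.5 to 59.1) and 55.5% (52.9 to 58.2) of these counts in mESC-Y1 to mESC-Y3. In MEFs its share was 0.287%, 0.569%, 0.227% and 0.298% in MEF-O1 to MEF-O4. Intervals cover counting error only. Counts were not calibrated between genes, so shares are compared between cell types and not between genes. Cdh11 took the larger place in MEFs, with 68.3 ± 4.31% (SD, n = 4) against 3.18 ± 0.783% in mESCs (SD, n = 3). Cdh2 held 9.41 ± 2.25% in MEFs and 1.53 ± 0.288% in mESCs. Cdh3 was lower in mESCs in level, but its shares overlapped, since it held 11.7 to 21.2% in MEF libraries and 11.8 to 15.6% in mESC libraries. The sum over the 23 genes was 911 to 1212 CPM in MEF libraries and 141 to 176 CPM in mESC libraries, a sum that was not tested and that rests largely on Cdh11 in MEFs. The 6 member cadherins held 92.9 to 95.9% of it in MEFs and 73.7 to 79.6% in mESCs.

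**Figure D3:**
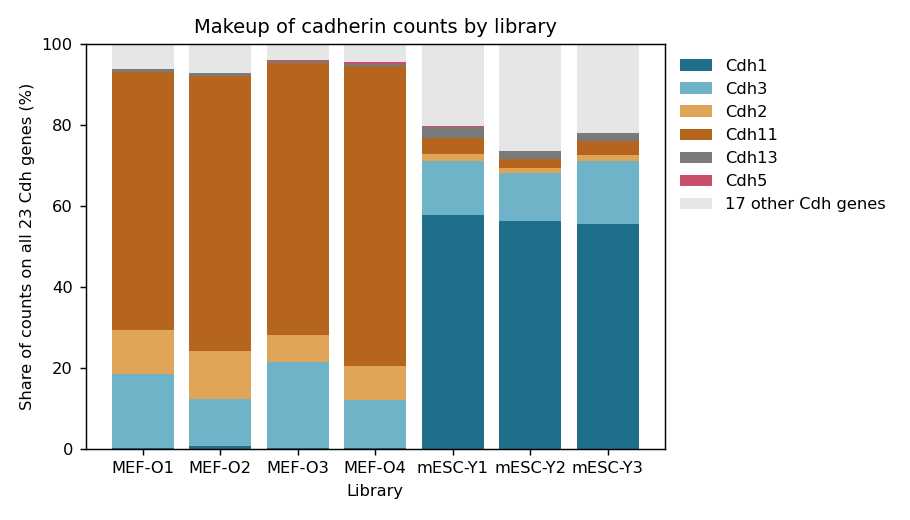
Share of the counts on all 23 Cdh genes that fell on each member cadherin, as a percentage on the y axis, for each library on the x axis. Cdh1 fills between 55.5 and 57.7% of each mESC bar, and Cdh11 between 63.9 and 74.2% of each MEF bar.

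Of the genes in other families, Epcam (chromosome 17, 87635979 to 87651129, plus strand) codes for an epithelial adhesion molecule that is cut to release signalling fragments. It had 12.6, 10.8, 12.2 and 10.0 CPM in MEF-O1 to MEF-O4, a narrow range, and 249, 304 and 217 CPM in mESC-Y1 to mESC-Y3. The level was 22.5-fold higher in mESCs, at 256 ± 44.1 CPM (SD, n = 3) against 11.4 ± 1.19 CPM (SD, n = 4). The log2 fold change was 4.48 (standard error 0.180, 95% interval 4.09 to 4.88, edgeR adjusted p = 3.41e-08). It may be a sort gene, as said above. The MEF level was not at 0, with 63 to 131 counts per library.

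Pecam1 (chromosome 11, 106654217 to 106750628, minus strand) codes for CD31, an immunoglobulin-type adhesion molecule of endothelial cells, platelets and mESCs. It had 2.21, 2.74, 2.88 and 3.34 CPM in MEFs and 22.0, 38.3 and 29.4 CPM in mESCs. Its mESC mean of 29.9 ± 8.16 CPM (SD, n = 3) was 10.7-fold above the MEF mean of 2.79 ± 0.466 CPM (SD, n = 4), and the log2 fold change was 3.42 (standard error 0.285, edgeR adjusted p = 4.22e-06).

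Thy1 (chromosome 9, 44043384 to 44048579, plus strand) codes for CD90, a lipid-anchored protein of fibroblasts, neurons and T cells. The MEF libraries had 354, 386, 325 and 344 CPM and the mESC libraries had 7.80, 7.27 and 6.25 CPM. It was 49.5-fold lower in mESCs, with means of 352 ± 25.4 CPM (SD, n = 4) and 7.11 ± 0.788 CPM (SD, n = 3). Its fitted log2 fold change was -5.63 (standard error 0.176, edgeR adjusted p = 1.11e-08). Thy1 is the other possible sort gene.

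Cd44 (chromosome 2, 102811141 to 102901665, minus strand) codes for the main receptor for hyaluronan. It had 426, 486, 244 and 224 CPM in MEF-O1 to MEF-O4, and 6.94, 8.98 and 1.06 CPM in mESC-Y1 to mESC-Y3. MEF-O1 and MEF-O2 were near the same level, and MEF-O3 and MEF-O4 were lower. In mESCs the highest library was 8.45 times the lowest, which had 9 counts. The means were 345 ± 131 CPM (SD, n = 4) and 5.66 ± 4.11 CPM (SD, n = 3), 61.0-fold lower in mESCs. The log2 fold change was -5.92 (standard error 0.609, the largest error of the called members, edgeR adjusted p = 1.95e-05), and -5.44 without mESC-Y3.

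The low-side levels of the called members differed. In MEFs, Cdh1, Epcam and Pecam1 stood at 3.77%, 4.45% and 9.34% of their mESC means, while the 10 pluripotency markers, among them Pou5f1, Nanog and Sox2, stood at 0.398% to 2.0%. The members were thus above all 10 markers on this measure. In mESCs, Cdh11, Cd44, Thy1, Cdh2 and Cdh3 stood at 0.745%, 1.64%, 2.02%, 2.64% and 13.4% of their MEF means. The 10 fibroblast markers stood at a median of 0.850%, from 0.452% to 5.35% (Pdgfra) for 9 of them and at 16.6% for Lum. Cdh3 was thus above 9 of the 10 markers, Cdh2 above 8, Thy1 and Cd44 above 7 and Cdh11 above 4. All 10 pluripotency markers were higher and all 10 fibroblast markers lower in mESCs, matching the cell types named in the labels. Values in the marker lists of other cell types are given here because Cdh5 and Pecam1 also mark endothelium. The 12 endothelial markers summed to 245 to 335 CPM in MEFs and 104 to 121 CPM in mESCs, Cldn5 and Esam being at or under the floor in every MEF library, and Erg in every mESC library. Of 9 tested, Vwf, Egfl7 and Plvap were higher in mESCs and Flt1, Cd34 and Erg were lower. Sums over the blood list were 6.71 to 39.0 CPM in MEFs and 59.3 to 69.8 CPM in mESCs, in the latter mostly Laptm5. Of 7 tested blood genes, 1 was higher and 2 were lower in mESCs. Ptprc, Cd53 and Cd48 had 30, 85 and 21 counts pooled over MEFs against 1, 5 and 1 over mESCs. Coro1a had 8 against 11. Neural genes reached 67.5 to 92.2 and 642 to 713 CPM, the keratinocyte list 154 to 185 and 151 to 174 CPM, and skeletal muscle genes 21.7 to 32.6 and 5.19 to 15.2 CPM. Of 5 tested neural genes, 4 were higher and 0 lower in mESCs. The shares over all tested genes, for this list as for the endothelial and blood lists, were 22.8% and 25.0%. Neurod1 had 2 counts pooled over MEFs and 669 over mESCs. The part of such cells in the results was not tested.

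Of the 6 member cadherins, 5 lie on chromosome 8, as do 8 of all 23 Cdh genes. The end of Cdh3 lies 46.1 kb before the start of Cdh1, with 2 genes between, of which Gm10073 is coding and did not pass the test (log2 fold change -0.37, edgeR adjusted p = 0.119). Within 1000 kb of the start of Cdh1, 42 of 54 coding genes were tested, and 10 were higher and 6 lower in mESCs, Cdh1 and Cdh3 included. Over all tested genes, 22.8% were higher and 25.0% lower.

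**Figure D4:**
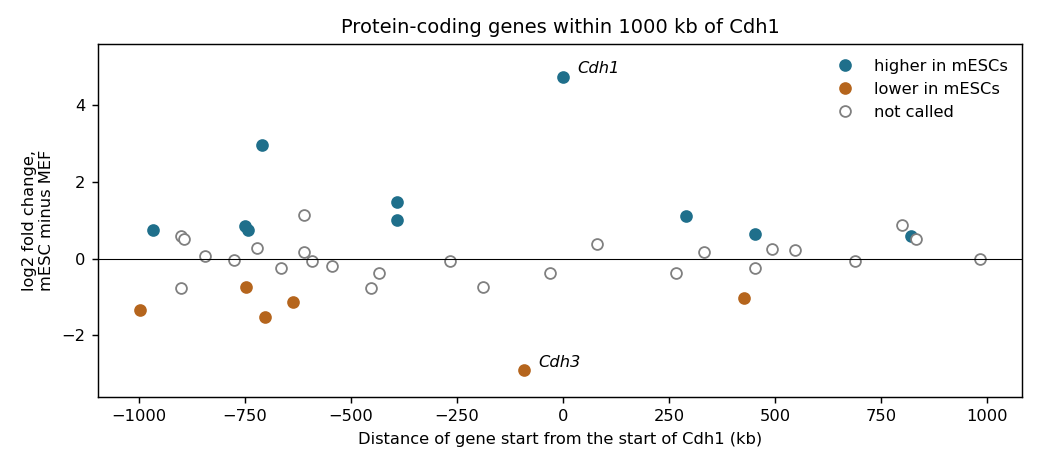
Log2 fold change (y axis, mESC minus MEF) of the 42 tested coding genes against the distance of their start from the start of Cdh1 in kb (x axis). Cdh1 is the highest point at 4.74, and Cdh3, whose start is at -92.5 kb, is the lowest at -2.90.

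Of the members, only Epcam and Cd44 had a promoter in the RefSeq table used here (GRCm38.p6). The 250 bases before each start are shown, since these genes differed in opposite directions and factors of the E-cadherin repressor list bind CACCTG. Capitals mark CACCTG, searched with its reverse complement CAGGTG, and GGGCGG, searched with CCGCCC, both on both strands.
Epcam, chr17:87635729-87635978, plus strand: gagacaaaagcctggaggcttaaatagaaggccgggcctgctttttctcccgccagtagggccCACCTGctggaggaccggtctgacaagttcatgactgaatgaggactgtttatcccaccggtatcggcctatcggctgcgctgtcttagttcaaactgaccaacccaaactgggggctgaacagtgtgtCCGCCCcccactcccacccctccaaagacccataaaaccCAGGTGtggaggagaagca
Cd44, chr2:102901666-102901915, minus strand: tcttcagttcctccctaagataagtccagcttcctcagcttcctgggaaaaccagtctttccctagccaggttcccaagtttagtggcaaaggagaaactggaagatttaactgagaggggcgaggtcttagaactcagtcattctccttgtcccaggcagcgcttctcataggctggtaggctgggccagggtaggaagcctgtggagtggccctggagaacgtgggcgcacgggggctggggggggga
Epcam held CACCTG 2 times, with first bases 187 and 19 bases before the start, and GGGCGG once. Cd44 held neither. Of 32851 promoters, 17.2% held CACCTG at least once, 2.06% held it 2 or more times, and 32.7% held GGGCGG. These matches describe letters, and no binding was measured.

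Other adhesion genes and the genes that act on cadherins, EPCAM and CD44 were taken in 9 lists of 137 genes, of which 110 were tested. Of these, 22 were higher and 50 lower in mESCs, which is 65.5% called against 47.9% over all tested genes. The excess lay in the lower direction, at 45.5% against 25.0%, while the share higher was below the 22.8% over all tested genes. The lists were chosen with earlier results of these data known, so these shares describe them and are not a test of the lists. 

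Of 22 other cadherins, 8 were tested, none was called higher by edgeR, 0 passed at an unadjusted p under 0.05, 0 were higher by DESeq2 and 1 was when genes with at least 1 count were kept. Of the tested genes 3 were lower (25.0% over all tested genes), with a list median of -0.62. That median lay at -0.09 without MEF-O2, -0.20 without mESC-Y3, -0.23 without MEF-O3 and -0.24 without MEF-O4, at -0.34 both with library size alone and with the filter of 10 counts, and it turned to 0.20 when genes with at least 1 count were kept. Cdh8, a brain cadherin, had 14, 12, 36 and 47 counts in MEFs and 0 in every mESC library, at least 11.0-fold lower against a floor of 3 counts per library. Cdh10 had 27, 11, 7 and 9 counts against 0, at least 4.81-fold lower. Cdh6 fell from 23.4 ± 6.81 CPM (SD, n = 4) to 10.7 ± 2.03 CPM (SD, n = 3). Without MEF-O2, 1 was called lower, and 2 without any other MEF library.

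Among protocadherins and the large cadherins, 18 of 24 were tested. Of them 3 were higher and 10 lower (22.8% and 25.0% over all tested genes), and the median was -1.89. Pcdh18, Pcdh9 and Fat4 fell most, with log2 fold changes of -6.76, -6.25 and -6.00 (edgeR adjusted p = 1.16e-06, 8.8e-06 and 4.81e-06). Clstn3, Celsr1 and Celsr3 rose, with 4.70, 3.78 and 1.76 on the log2 scale (edgeR adjusted p = 0.00109, 6.66e-04 and 0.0137). Celsr1 and Celsr3 code for planar polarity cadherins.

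Of the 17 listed catenins and linkers, 5 were higher and 5 lower (22.8% and 25.0% over all tested genes), and 7 were not called. The median of -0.20 became 0.08 when scaled by library size alone, -0.09 without mESC-Y1 and -0.10 without mESC-Y3. Ctnnal1, Nectin4 and Arvcf rose by 3.25, 2.21 and 2.03 on the log2 scale. Ctnna2, the alpha-catenin of neurons, Ctnnd2 and Vcl (vinculin) had log2 fold changes of -4.92, -1.86 and -1.36. Ctnnb1, Ctnna1 and Jup were named after their values were seen, and none of these was called. Beta-catenin (Ctnnb1) had 12.1 ± 2.86 CPM in MEFs (SD, n = 4) and 7.60 ± 1.71 CPM in mESCs (SD, n = 3) and was not called (edgeR adjusted p = 0.0945). Alpha-catenin (Ctnna1) had 251 ± 32.2 and 320 ± 16.2 CPM (edgeR adjusted p = 0.0589) and plakoglobin (Jup) 40.3 ± 2.51 and 35.1 ± 6.48 CPM (edgeR adjusted p = 0.395).

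The repressors of E-cadherin transcription differed in all 9 cases, 1 being higher and 8 lower in mESCs (22.8% and 25.0% over all tested genes). Their median was -3.63. Twist2 fell from 103 ± 12.0 CPM (SD, n = 4) to 0.424 ± 0.301 CPM (SD, n = 3), and its log2 fold change was -7.90 (edgeR adjusted p = 7.05e-08). Snai1 had 159, 91, 110 and 77 counts in MEFs and 4, 0 and 1 in mESCs. Its relative Snai2 had a log2 fold change of -5.84. Klf8 was the exception, with 2.73 (edgeR adjusted p = 0.00260).

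The 14 genes of cadherin shedding and turnover were lower in 10 cases (25.0% over all tested genes), with a median of -1.26. None was called higher by edgeR, while 1, Cbll1, passed at an unadjusted p under 0.05 (adjusted p = 0.0571), and DESeq2 called 1, library size alone 2, the filter of at least 1 count 1 and leaving out MEF-O4 1. The protease gene Adam10, whose product cuts E-cadherin, N-cadherin and CD44, fell from 652 ± 130 CPM (SD, n = 4) to 94.7 ± 44.8 CPM (SD, n = 3), and its log2 fold change was -2.78. Furin, a proprotein convertase, and Adam9 followed with -2.67 and -2.28.

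Of the 10 EPCAM partners and cleavage genes, 6 were higher and 2 lower (22.8% and 25.0% over all tested genes). A further 2 were not called, and the list median was 2.37. The median was 1.17 without MEF-O3, 1.28 without MEF-O1 and 1.32 without mESC-Y1. Spint1, an inhibitor of membrane serine proteases, had 9, 1, 0 and 0 counts in MEFs and 413, 236 and 299 in mESCs. Prss8, a serine protease, had 1 count over the MEF libraries and 41 over the mESC libraries (ratio 48.9, exact 95% interval 8.30 to 1978, counting error only). Claudin 7 (Cldn7), which binds EPCAM, rose from 1.11 ± 0.553 CPM (SD, n = 4) to 24.8 ± 8.95 CPM (SD, n = 3). Fhl2, which binds the released tail of EPCAM, was lower, with 134 ± 21.8 CPM in MEFs against 1.21 ± 1.03 CPM in mESCs, and Adam17, a sheddase, fell by 0.89 on the log2 scale.

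Around CD44 and hyaluronan, 15 of 16 genes were tested. Of them 3 were higher and 5 lower (22.8% and 25.0% over all tested genes), with a median of -0.06. With library size alone, 5 were higher and 4 lower and the median was 0.22. Leaving out each library moved it between -0.44 (without MEF-O1) and 0.19 (without MEF-O2), so its sign changed with the library left out. Osteopontin (Spp1), a ligand of CD44, rose from 66.9 ± 4.97 CPM (SD, n = 4) to 778 ± 62.5 CPM (SD, n = 3), while Has2, which makes hyaluronan, fell from 17.5 ± 6.25 to 0.560 ± 0.432 CPM. The linkers of CD44 to actin differed in direction, as ezrin (Ezr) had a log2 fold change of 1.80 and moesin (Msn) of -2.73. Hmmr, another hyaluronan receptor, rose by 1.45 and Cemip fell by 2.72 on the log2 scale.

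In the immunoglobulin superfamily, 18 of 23 genes were tested. Of them 3 were higher and 7 lower (22.8% and 25.0% over all tested genes), with a median of -0.51. Scaled by library size alone, 5 were higher and 6 lower with a median of -0.23, and the median was -0.13 without MEF-O3, -0.14 without mESC-Y3, -0.30 without MEF-O4, -0.21 with the filter of 10 counts and -0.08 when genes with at least 1 count were kept. Ncam1, the neural cell adhesion molecule, fell from 3021 ± 540 CPM (SD, n = 4) to 72.8 ± 15.8 CPM (SD, n = 3). Alcam, Ncam1 and Cd47 had log2 fold changes of -6.25, -5.38 and -3.39, and Madcam1, Bcam and Cadm1 of 2.81, 1.71 and 1.25. Of the SSEA1 pair, Fut9, which makes the SSEA1 sugar, rose from 1.02 ± 0.608 to 44.8 ± 6.23 CPM with a log2 fold change of 5.47, and Fut4 was not tested. SSEA1 was part of the sort described for mESCs.

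**Figure D5:**
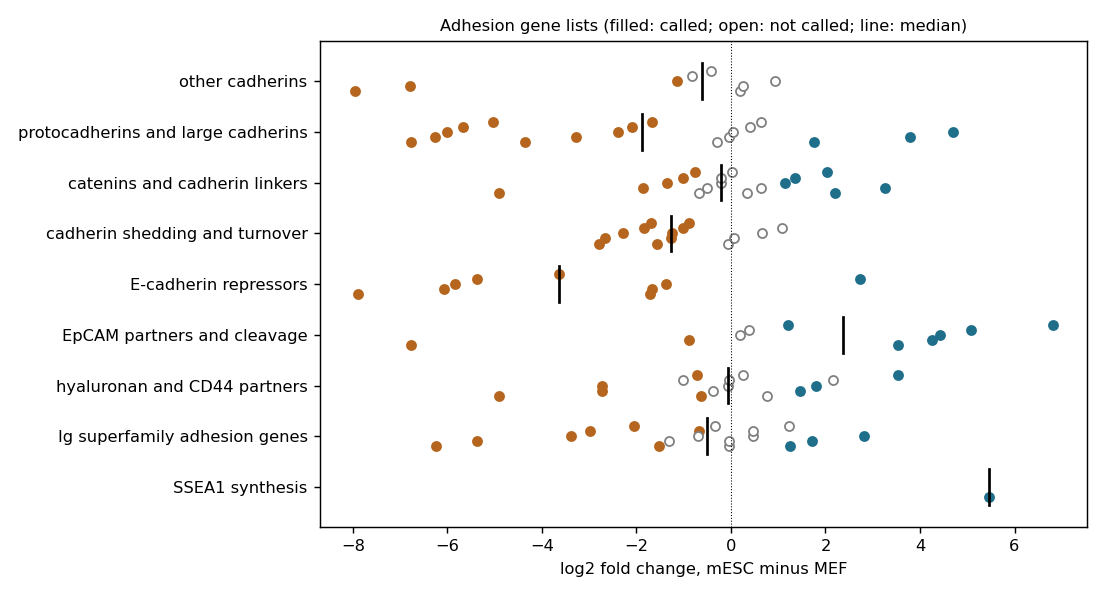
Log2 fold change (x axis, mESC minus MEF) of each tested gene of the 9 lists (y axis), 1 point a gene, blue where higher and brown where lower in mESCs, filled where called and open where not, with a line at each median. The repressor list lies almost wholly left of 0, and the EPCAM partners lie mostly right of it.

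For Cdh1 and Cdh2, the tested genes whose log2CPM, after taking off each gene's mean, was closest over the 7 libraries were named. They were Ly6g6e, Large2 and C330004P14Rik for Cdh1, with root mean square differences of 0.174, 0.195 and 0.236. Their fitted log2 fold changes were 5.10, 5.71 and 6.34, against 4.74 for Cdh1. For Cdh2 the closest genes were Trib2, Anxa5 and Cspg4, with differences of 0.0847, 0.167 and 0.187 and log2 fold changes of -5.10, -4.99 and -5.13. The measure spans both cell types, so genes with a like difference between them come close, and shared regulation was not tested.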

How the data were processed

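RNA-seq counts of 4 MEF and 3 mESC libraries were used. Per the labels and methods, the authors aligned reads to mm10 (STAR 2.4.2a in the submitters' processing notes, another version in the methods), collapsed reads by molecular identifier and used featureCounts to assign those mapping uniquely to exons. They deposited whole-number counts without normalization. The annotation release and strand setting are not given in the sources used here. Library totals ran from 6528643 to 11441278 counts, and 3 counts (0.288 to 0.477 CPM) were taken as the floor. Rows with date-like symbols (26) stayed in the totals.

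The cell types were compared in R 4.3.3 by the quasi-likelihood test of edgeR 4.0.16 (with limma 3.58.1), after filterByExpr and TMM. All 7 libraries entered, with no covariate, the threshold was an adjusted p of 0.05, and log2CPM used a prior count of 2. Standard errors were the log2 fold change over the square root of F. Code was tested on simulated data. Libraries of a cell type differed beyond sampling noise (chi-square per degree of freedom 15.6 to 31.1). Among MEFs this was 15.8 for MEF-O1 with MEF-O2 and 20.1 for MEF-O3 with MEF-O4. The other MEF pairs had 26.2 to 31.1. Whether the MEF libraries are related in pairs is not stated in the sources used here and was not tested, so n = 4 counts libraries. Alternatives were DESeq2 1.42.0, its size factors in edgeR, library size alone, filters of at least 1 count and of 10 counts in every library of a cell type, a test against a fold change of 2, a prior count of 0.5, cadherin shares over the 6 members alone, and leaving out each library. The members and lists were chosen with earlier results of these data known. Named genes were the members, the called genes with the 3 largest and 3 smallest log2 fold changes of each list, marker genes above 3 counts in a cell type that should lack them (mostly given as sums), and the 3 genes closest to Cdh1 and to Cdh2. Gene positions came from GENCODE M21 (GRCm38) and promoters from RefSeq.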

Additional observations from a re-analysis of the deposited data

Results flagged for a closer look

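The Cdh1 level in the MEF libraries stood out because of 1 library. MEF-O2 had 5.18 CPM and the other 3 had 2.69 to 3.02 CPM, so its gap to the nearest library was 0.866 of the whole range, above Dixon's 95% critical value for 4 libraries. Chance flags about 5% of such groups, and 10 member genes were looked at. The rule was applied to CPM and not to log2CPM, so the flag speaks for the CPM scale alone. On the log2CPM scale MEF-O2 stood at 2.44 and the others at 1.55 to 1.71. Without MEF-O2 the MEF mean was 2.82 ± 0.177 CPM (SD, n = 3) and the log2 fold change 5.0 (edgeR adjusted p = 2.6e-07).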

How the results depend on the processing

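The 8 called members kept their direction and stayed called in all 13 alternative fits, 104 values in all, and Cdh13 stayed uncalled. Cdh5 was tested only with the filter of at least 1 count and was then called, in a fit whose p-values are not comparable with the main ones. Their log2 fold changes ran from 4.63 to 5.03 for Cdh1, -5.48 to -4.94 for Cdh2, -3.07 to -2.61 for Cdh3, -7.32 to -6.78 for Cdh11, 4.34 to 4.76 for Epcam, 3.20 to 3.70 for Pecam1, -5.70 to -5.34 for Thy1 and -6.41 to -5.44 for Cd44. The test against a fold change of 2 left 3991 of 7938 genes, 1714 higher and 2277 lower, and 33 of 50 list genes lower, as that test asks for more than a difference. Over the 6 member cadherins alone, Cdh1 held 73.4% and Cdh2 1.98% of the mESC counts, since fewer genes are in the total. Leaving out each library gave 7032 to 7522 genes (3234 to 3619 higher, 3792 to 3916 lower), 68 to 73 list genes (19 to 24 higher, 47 to 49 lower) and 8 members (3 higher, 5 lower). The share of Cdh1 then ran from 0.271 to 0.385% in MEFs and 55.9 to 57.0% in mESCs, and that of Cdh2 from 8.67 to 10.3% and 1.37 to 1.65%. No paired analysis was possible because no source links the number ending a column name to a numbered sample. Depth limits Cdh5, Cdh8 and Cdh10, which had 0 counts in at least 1 library, and Cd44, which had 9 counts in mESC-Y3.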
